A study of Homo sapiens with 8 samples.

Results

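PKM (ENSG00000067225.17) encodes the muscle-type pyruvate kinase, and the skipped-exon tables of MCF10A and HMLE TWIST cells were searched for every event with that gene symbol. The search found 10 PKM events among 82355 in MCF10A and 9 among 98244 in HMLE TWIST, of which 7 had the same exon and flanking exons in both tables. Together they were 12 distinct events on 9 exons with distinct ends. A skipped-exon event compares reads over the junctions of a middle exon with reads over the junction that joins its neighbours directly. Of these events, 5 in MCF10A and 6 in HMLE TWIST had enough reads of both forms to be tested.

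Pyruvate kinase catalyses the last step of glycolysis, in which phosphoenolpyruvate passes its phosphate to ADP and pyruvate is formed. The PKM transcript carries either exon 9 or exon 10, which encode the same stretch of the protein. Exon 9 gives PKM1, a constitutively active enzyme found in adult muscle and brain, and exon 10 gives PKM2, which is activated by fructose bisphosphate and predominates in embryonic, proliferating and tumour cells. The RNA-binding proteins PTBP1, HNRNPA1 and HNRNPA2B1 are known to repress exon 9, and SRSF3 is known to favour exon 10.

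The groups were 2 libraries each of MCF10A cells with DMSO, MCF10A cells with 10 µM emetine, HMLE TWIST cells with DMSO and HMLE TWIST cells with 10 µM emetine, all collected after 24 hours. MCF10A is a breast epithelial line that does not form tumours. HMLE TWIST is an immortalised breast epithelial line into which the transcription factor TWIST was introduced with a retrovirus (pBabe-TWIST) and is overexpressed, so that line and transgene cannot be told apart here. Emetine is an alkaloid that blocks protein synthesis, and the DMSO groups are called controls below. The labels call the 2 libraries of a group biological replicates without saying how the cultures were separated. The p-values rest on the spread between these libraries, which the tests draw largely from all tested events and not from PKM alone.

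Junction reads summed over all events came to between 78412292 and 91259363 per library, and a read can count in several events. Replicates of a group differed beyond sampling noise, with a mean chi-square per event between 1.96 and 2.04. Of 7 epithelial marker genes, 5 had events in MCF10A, with summed reads between 36949 and 63100 per library, and 4 in HMLE TWIST, with sums of 69 and 123 with DMSO and 110 and 92 with emetine. The E-cadherin gene CDH1 had 0 to 7 reads in the HMLE TWIST libraries. The mesenchymal markers had 5 of 6 genes listed in MCF10A, with sums of 26776 and 30126 with DMSO and 6452 and 6950 with emetine. All 6 were listed in HMLE TWIST, with sums of 309932 and 295538 with DMSO and 187425 and 163035 with emetine. Both sums separated the lines, and the treatments within a line did not overlap except in the epithelial sum of HMLE TWIST. Each sum takes 1 read count per gene, the largest among its events. KRT5 made up most of the epithelial sum of MCF10A, with 30793 to 54251 reads, and was not listed in HMLE TWIST. VIM made up most of the mesenchymal sum, with 5912 to 28296 reads in MCF10A and 95897 to 190386 in HMLE TWIST. Not every mesenchymal gene fell with its sum. In HMLE TWIST ZEB2 rose from 278 and 274 reads to 498 and 376, and CDH2 overlapped between treatments. In MCF10A ZEB2 rose from 7 and 1 reads to 24 and 15, and ZEB1 overlapped between treatments. The part of these marker genes in the PKM values below was not tested.

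**Figure D1:**
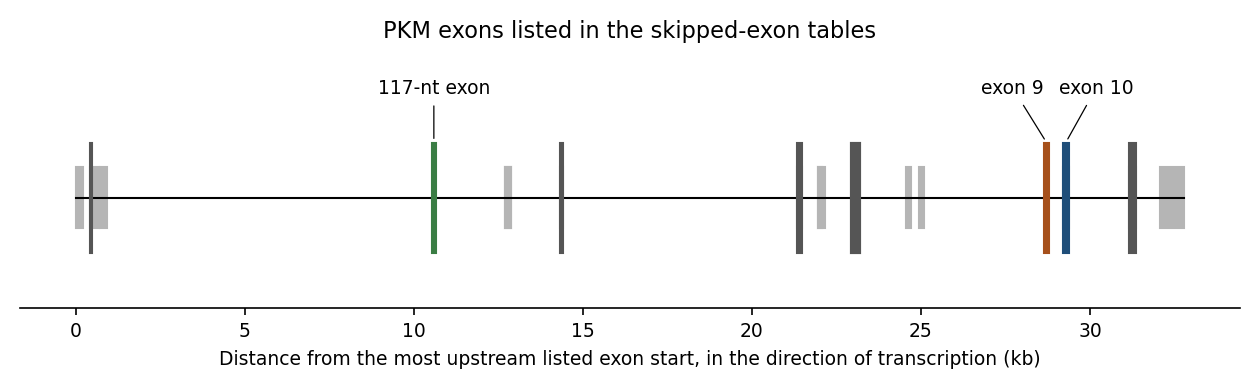
Exons of PKM in the skipped-exon tables, drawn to scale along the direction of transcription (kb from the most upstream listed exon start). Tall boxes are the exons whose skipping was listed, with exon 9 in orange, exon 10 in blue and the 117-nucleotide exon in green, and short grey boxes are flanking exons.

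Exons 9 and 10 were both listed between exon 8 (chromosome 15, 72499069 to 72499221, 153 nucleotides) and exon 11 (72492815 to 72492996, 182 nucleotides) on the minus strand of GRCh37. Exon 9 spans 72495363 to 72495529 and exon 10 spans 72494795 to 72494961, and the 2 exons have the same length. GENCODE 29 places exon 9 in 6 protein-coding transcripts, always as coding sequence, and exon 10 in 3 protein-coding transcripts and 1 that is annotated as a target of nonsense-mediated decay. No transcript of that annotation joins exon 8 directly to exon 11. Because that length is not a multiple of 3, a transcript that lacks both exons changes reading frame after exon 8. The 2 sequences are shown because every read of the exon choice below counts one against the other. They are printed 5′ to 3′ on the transcript strand, from GENCODE 29 transcripts at GRCh38 positions chr15:72203022-72203188 (exon 9) and chr15:72202454-72202620 (exon 10), and capitals mark the positions at which the 2 exons differ.
PKM exon 9: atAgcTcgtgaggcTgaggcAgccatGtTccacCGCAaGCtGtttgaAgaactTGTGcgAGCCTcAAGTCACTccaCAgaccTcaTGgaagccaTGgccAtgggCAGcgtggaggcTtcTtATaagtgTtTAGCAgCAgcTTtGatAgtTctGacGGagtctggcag
PKM exon 10: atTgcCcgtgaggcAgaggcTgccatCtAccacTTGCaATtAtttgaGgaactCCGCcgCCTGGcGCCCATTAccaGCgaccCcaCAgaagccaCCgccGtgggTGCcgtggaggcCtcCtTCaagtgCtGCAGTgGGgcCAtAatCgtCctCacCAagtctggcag

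Aligned without gaps, the exons are identical at 105 positions (62.9%) and differ at 62. The differences lie in all parts of the exon, with 16 in positions 1 to 55, 26 in positions 56 to 110 and 20 in the rest, and the longest identical run is 10 nucleotides. GC content is 53.3% in exon 9 and 61.1% in exon 10. The triplet GGG occurs 1 time in exon 9 and 3 times in exon 10, overlaps counted, and 79.3% of the 918 annotated internal exons of the same length hold it. On the opposite strand GGG occurs 0 and 4 times, against 83% of those exons. TCTT, the DNA form of a pyrimidine motif bound by PTBP1, occurs 1 time in exon 9 and 0 times in exon 10, with 49.3% of same-length exons holding it, and 1 and 0 times on the opposite strand, against 67.6%. A pattern of 4 runs of at least 2 G, separated by 1 to 7 bases, was matched 1 time in exon 9 and 0 times in exon 10 on the transcript strand (27.3% of same-length exons), and 0 and 3 times on the opposite strand (32%).

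All 8 libraries used exon 10 in the large majority of PKM transcripts, and HMLE TWIST used exon 9 about 2.06 times as often as MCF10A without emetine and 2.2 times as often with it. The exon 9 share is the number of reads over the junctions of exon 9 as a percentage of those over the junctions of exon 9 and exon 10, both between exons 8 and 11. In the MCF10A controls, exon 9 had 917 and 893 reads and exon 10 had 29001 and 26117. The exon 9 share was therefore 3.065% (95% Wilson interval 2.88 to 3.27) and 3.306% (3.1 to 3.53), or 31.6 and 29.2 exon 10 reads for each exon 9 read. The HMLE TWIST controls had 2420 and 2942 reads of exon 9 and 36239 and 39865 of exon 10, a share of 6.26% (6.02 to 6.51) and 6.873% (6.64 to 7.12). Both HMLE TWIST controls lay above both MCF10A controls, with 15 and 13.6 exon 10 reads per exon 9 read.

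The line difference was tested with a quasi-binomial model over all exon pairs that share both flanking exons in the tables, on all 8 libraries. Exon 9 took 3.19 ± 0.171% of these reads in MCF10A and 6.57 ± 0.433% in HMLE TWIST controls (mean ± SD, n = 2 libraries each), a difference of 3.38 percentage points. The odds of exon 9 were 2.15 times as high (95% interval 1.79 to 2.57, adjusted p = 2.65e-10 over 2832 pairs in the quasi-binomial model, 0.0136 in limma). Of those pairs, 5.3% passed an adjusted p of 0.05 in this comparison. Under emetine the shares were 2.36 ± 0.0073% and 5.2 ± 0.0336%, a difference of 2.84 points, and the odds were 2.27 times as high in HMLE TWIST (1.8 to 2.85, adjusted p = 2.04e-08 in the quasi-binomial model, 0.0128 in limma). In that comparison 14.1% of pairs passed. The mesenchymal and epithelial marker sums given above separate the same groups, and the lines also differ in origin, so the transgene's part in the difference cannot be told apart from that of the line.

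**Figure D2:**
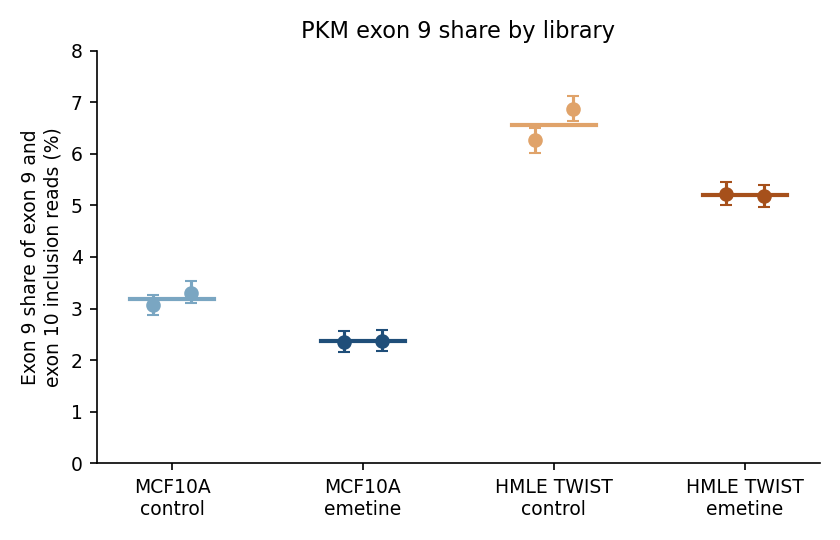
Exon 9 share of the junction reads of PKM exons 9 and 10 (%), by group. Points are single libraries with 95% Wilson intervals (counting error only) and horizontal bars are group means; the MCF10A libraries lie between 2.357 and 3.306% and the HMLE TWIST libraries between 5.176 and 6.873%.

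Under emetine, exon 9 was a smaller part of the exon choice in both lines, and the difference passed the main test in HMLE TWIST but not in MCF10A. MCF10A with emetine had 518 and 517 reads of exon 9 and 21456 and 21319 of exon 10, a share of 2.357% (2.16 to 2.57) and 2.368% (2.17 to 2.58), so both emetine libraries lay below both controls. The share was 0.74 times that of the controls, a difference of -0.823 points, with an odds ratio of 0.737 (0.561 to 0.969, adjusted p = 0.12 over 5383 pairs in the quasi-binomial model, 0.198 in limma). In this comparison 17.8% of pairs passed, and the libraries of the 2 groups did not overlap in 54.6%. The 2 emetine libraries differed by less than their counting error. Without the first or the second listed control the adjusted p of the quasi-binomial model was 0.00185 or 0.0247, and without the first or the second listed emetine library it was 0.584 or 0.539. In each of these fits 1 arm is a single library, which is assumed to vary like those of the other group.

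In HMLE TWIST with emetine, exon 9 had 1840 and 2103 reads and exon 10 had 33386 and 38528, a share of 5.223% (5 to 5.46) and 5.176% (4.96 to 5.4). Both lay below the controls, and the ratio of the means was 0.791. The share fell by 1.37 points, with an odds ratio of 0.778 (0.69 to 0.878, adjusted p = 0.000676 over 7795 pairs in the quasi-binomial model). In this comparison 23.4% of pairs passed, and libraries did not overlap in 57.2%. limma on the log2 odds gave an adjusted p of 0.224, and the quasi-binomial model without the second listed emetine library gave 0.0955, so the call did not hold under either. The difference in response between the lines did not pass (ratio of odds ratios 1.06, interval 0.789 to 1.41, adjusted p = 0.935 in the quasi-binomial model, where 2.12% of pairs passed). No comparison moved the share by the 0.1 of the read total (10 points) that was asked of a changed exon. From mean control shares of 3.19% in MCF10A and 6.57% in HMLE TWIST, a fall of that size was not possible. The size rule therefore says nothing about the falls under emetine.

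PKM transcripts with neither exon were rare in all 4 groups. Their share rose under emetine in HMLE TWIST, and the difference in MCF10A did not pass the main test. The join of exon 8 to exon 11 was read 2 and 2 times in MCF10A controls and 6 and 6 times with emetine. With inclusion reads divided by 2 for the pair of junctions that each included exon has, this was 1.34 (exact 95% interval 0.162 to 4.83) and 1.48 (0.179 to 5.35) of 10000 transcripts with DMSO, and 5.46 (2 to 11.9) and 5.49 (2.02 to 12) with emetine. The 2 MCF10A groups did not overlap in their values, but the counting intervals of single libraries did. HMLE TWIST controls had 4 and 3 such reads, or 2.07 (0.564 to 5.3) and 1.4 (0.289 to 4.1) of 10000. Under emetine there were 27 and 40, or 15.3 (10.1 to 22.3) and 19.7 (14 to 26.8) of 10000, and these intervals lay above those of both controls. The ratio of group means was 3.89 in MCF10A and 10.1 in HMLE TWIST.

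**Figure D3:**
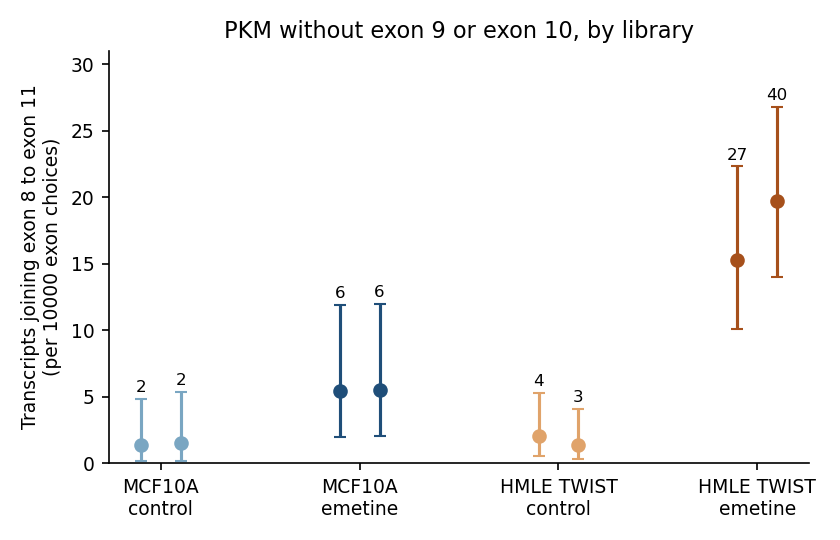
PKM transcripts that join exon 8 to exon 11, per 10000 choices among exon 9, exon 10 and neither, by library with exact 95% intervals (counting error only). Numbers above the points are reads of the join; the 2 HMLE TWIST libraries with emetine, at 27 and 40 reads, stand above the other 6.

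The tables listed these same skipping reads in 2 events, each with the inclusion reads of only 1 of the exons, so the events are not independent. The exon 9 event set 917 and 893 inclusion reads against the 2 and 2 skipping reads in MCF10A controls, a level of 99.57 and 99.55%, and reached 97.74 and 97.73% under emetine (adjusted p = 0.0551 in the quasi-binomial model, 0.0276 in limma). In HMLE TWIST its level was 99.67 and 99.8% in controls and 97.15 and 96.34% under emetine, so that it fell by 2.99 points (odds ratio 0.0768, interval 0.0265 to 0.223, adjusted p = 0.000732 in the quasi-binomial model, 0.0137 in limma). In HMLE TWIST the exon 10 event fell by 0.166 points from 99.98% in both controls to 99.84 and 99.79% (odds ratio 0.0987, interval 0.0293 to 0.332, adjusted p = 0.00269 in the quasi-binomial model, 0.0151 in limma). In MCF10A it went from 99.99 and 99.98% to 99.94 and 99.94% (adjusted p = 0.149 in the quasi-binomial model, 0.0435 in limma). Neither of the 2 emetine calls in HMLE TWIST held in the main model without the first or without the second listed emetine library. The level of the exon 9 event still differed by -0.03398 and -0.02585 (as a fraction of 1) in these fits. The exon 10 event was also lower in HMLE TWIST than in MCF10A under emetine (difference -0.128 points, adjusted p = 0.0233 in the quasi-binomial model, 0.0609 in limma). That call was lost without either MCF10A emetine library (adjusted p = 0.117 and 0.118 in the quasi-binomial model) and without the second HMLE TWIST emetine library (0.111). In the authors' deposited table the FDR of the exon 9 event was 0.387 in MCF10A and 2.59e-09 in HMLE TWIST, and that of the exon 10 event was 1 in both. The difference in response between the lines did not pass for either event (adjusted p = 0.701 for exon 9 and 0.72 for exon 10 in the quasi-binomial model).

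The PKM exon with the largest change was a 117-nucleotide exon near the start of the gene (chromosome 15, 72513509 to 72513625), whose inclusion rose under emetine in both lines. It was listed after either of 2 first exons, of 218 nucleotides (72523237 to 72523454) and of 271 nucleotides (72523457 to 72523727), and always before the same downstream exon (72511285 to 72511451). GENCODE 29 holds it after the 218-nucleotide first exon in 1 protein-coding transcript, as 5′ untranslated sequence. After the 271-nucleotide first exon it is in 2 transcripts, 1 protein-coding and 1 annotated as a decay target, and in 1 of them it holds an end of the coding sequence.

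After the 218-nucleotide first exon, the 117-nucleotide exon had 23 and 28 inclusion reads against 59 and 56 skipping reads in MCF10A controls, and 224 and 244 against 47 and 37 under emetine. Its inclusion level was 16.31 and 20% with DMSO and 70.44 and 76.73% with emetine. In HMLE TWIST the reads were 33 and 23 against 120 and 110 in controls, and 328 and 402 against 87 and 107 under emetine. The levels were 12.09 and 9.465% with DMSO and 65.34 and 65.26% with emetine. The groups did not overlap in either line, as in 67.4% and 69.9% of all tested events of MCF10A and HMLE TWIST.

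The rise was 55.43 points in MCF10A, from 18.16 ± 2.61% to 73.58 ± 4.45% (mean ± SD, n = 2; odds ratio 12.6, interval 7.14 to 22.1, adjusted p = 8.84e-06 over 25522 events in the quasi-binomial model, 0.0151 in limma). In HMLE TWIST it was 54.52 points, from 10.78 ± 1.85% to 65.3 ± 0.0558% (odds ratio 15.5, interval 10.1 to 23.6, adjusted p = 1.13e-05 over 30290 events in the quasi-binomial model, 0.0115 in limma). These were the only PKM events called changed in either line, that is, with an adjusted p under 0.05 and a difference of at least 0.1 (10 points) in level. Among all tested events, 7.93% were changed towards higher inclusion in MCF10A and 6.19% in HMLE TWIST. These levels include reads shared with the other first exon, and with those apportioned as described below the rise was 0.328 of 1 in MCF10A and 0.332 in HMLE TWIST. The odds ratios, adjusted p-values and calls given here belong to the reads as deposited, and the apportioned rise was not tested. With an emetine library left out the adjusted p of the quasi-binomial model rose to 0.0527 and 0.0827 in MCF10A and to 0.0796 and 0.0983 in HMLE TWIST, in fits that called at most 127 events of the whole table. With groups that lack reads of 1 form kept out of the dispersion, an alternative chosen after seeing the data, the highest value for any library left out was 4.87e-10 in MCF10A and 1.8e-20 in HMLE TWIST.

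After the 271-nucleotide first exon, which supplied nearly all direct joins to that downstream exon, the same exon was rare in every group. MCF10A controls had 34 and 49 inclusion reads against 12812 and 14185 skipping reads, and emetine libraries had 374 and 409 against 10063 and 10885. The level was 0.1325 and 0.1724% with DMSO and 1.824 and 1.844% with emetine, a 12-fold rise of the mean (odds ratio 12.2, interval 8.8 to 16.8, adjusted p = 1.37e-08 in the quasi-binomial model, 0.0145 in limma). HMLE TWIST had 43 and 32 inclusion reads against 19846 and 19286 in controls, and 508 and 588 against 15193 and 18728 under emetine. The level was 0.1082 and 0.08289% in controls and 1.644 and 1.546% under emetine, a 16.6-fold rise (odds ratio 16.9, interval 11.7 to 24.2, adjusted p = 1.47e-06 in the quasi-binomial model, 0.0113 in limma). The rise in level was 1.68 points in MCF10A and 1.5 points in HMLE TWIST. This event and that of the 218-nucleotide first exon share reads and are not independent.

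Reads over the junction from the 117-nucleotide exon to the downstream exon count in both events, whichever first exon the transcript had, so the level after the 218-nucleotide first exon was overstated. The skipping reads of the 218-nucleotide first exon were only 0.339 to 0.601% of those of both first exons in any library. When the shared reads were apportioned by taking each included exon to have as many reads on its upstream as on its downstream side, a calculation chosen after seeing the data, the level after the 218-nucleotide first exon was 0.0635 and 0.04 (as a fraction of 1) in MCF10A controls and 0.344 and 0.416 under emetine. In HMLE TWIST it was 0.0601 and 0.0407 in controls and 0.362 and 0.402 under emetine. The difference of means was then 0.328 in MCF10A and 0.332 in HMLE TWIST, against 0.554 and 0.545 before, without overlap of groups. The apportioned control levels rest on few inferred inclusion reads, 4 and 2.33 in MCF10A and 7.67 and 4.67 in HMLE TWIST. They lie near the floor, and no interval was calculated for them. The level after the 271-nucleotide first exon moved little, to a 12.2-fold rise in MCF10A and a 17.9-fold rise in HMLE TWIST.

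**Figure D4:**
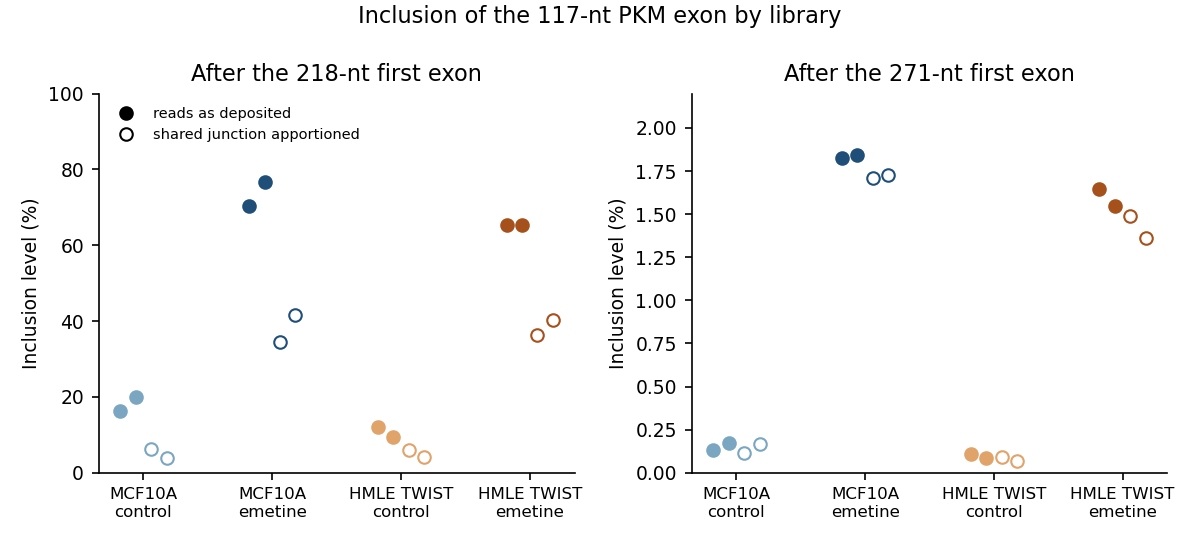
Inclusion level (%) of the 117-nucleotide PKM exon after the 218-nucleotide first exon (left, 0 to 100%) and after the 271-nucleotide first exon (right, with a narrower axis), by library. Filled points use reads as deposited and open points the apportioned reads; every emetine library lies above every control library of its line in both panels.

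None of the other tested PKM exons passed. The 68-nucleotide exon (72523665 to 72523732), annotated as 5′ untranslated sequence of 1 transcript, was covered by 14 to 120 reads per library, against 10063 to 19846 for the direct join of the 271-nucleotide first exon. It had 120 inclusion and 0 skipping reads and 107 and 2 in HMLE TWIST controls, against 87 and 2 and 105 and 6 under emetine. Its level was 98.48 ± 2.15% and 93.77 ± 3.56% (difference -4.71 points, adjusted p = 0.194 in the quasi-binomial model, 0.175 in limma). In MCF10A it had 14 to 42 reads per library and was not tested; its level was 100% and 85% in controls (0 and 4 skipping reads) and 100% in both emetine libraries. The 92-nucleotide exon (72509750 to 72509841), held as coding sequence by 9 protein-coding transcripts, had 2 and 1 skipping reads in MCF10A controls and 2 and 6 under emetine, beside 25864 to 35441 inclusion reads. In HMLE TWIST it had 5 and 4 skipping reads in controls and 7 and 12 under emetine. The difference did not pass in MCF10A (odds ratio 0.28, interval 0.0371 to 2.11, adjusted p = 0.283 in the quasi-binomial model) or HMLE TWIST (0.431, interval 0.125 to 1.48, adjusted p = 0.237).

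The remaining events had at most 1 skipping read in any library and were not tested. They were the 132-nucleotide exon (72502688 to 72502819) and the exon 11 events in MCF10A, exon 11 in HMLE TWIST, and the 271-nucleotide coding exon (72500962 to 72501232) in HMLE TWIST. The MCF10A table also listed exon 10 and exon 11 against a join of exon 8 to the last exon (72491373 to 72492097), each with 1 and 0 skipping reads in controls and 1 and 0 under emetine. With 0 skipping reads of 26668 in an MCF10A control, a share of up to 0.0112% of reads would have gone unseen for exon 11. The 271-nucleotide coding exon was listed a second time with an end 4 nucleotides further on, as an exon of 275 nucleotides (72500958 to 72501232). That form had 27902 and 28935 reads in controls and 24705 and 28170 under emetine, between 0.482 and 0.495 of the reads of the shorter form. The 2 forms share the upstream junction, and reads of the downstream one are not given separately. The shorter form had 28453 and 31090 more reads in controls and 25863 and 29634 more under emetine. In each library this excess was larger than the whole count of the longer form. If an included exon has equal reads on both sides, that leaves none for the downstream junction of the longer form. Its count is therefore no measure of how often the longer end was used. RefSeq lists PKM pseudogenes (PKMP1, PKMP2, PKMP3, PKMP4 and PKMP5), and reads that could also come from them were not separated here.

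**Figure D5:**
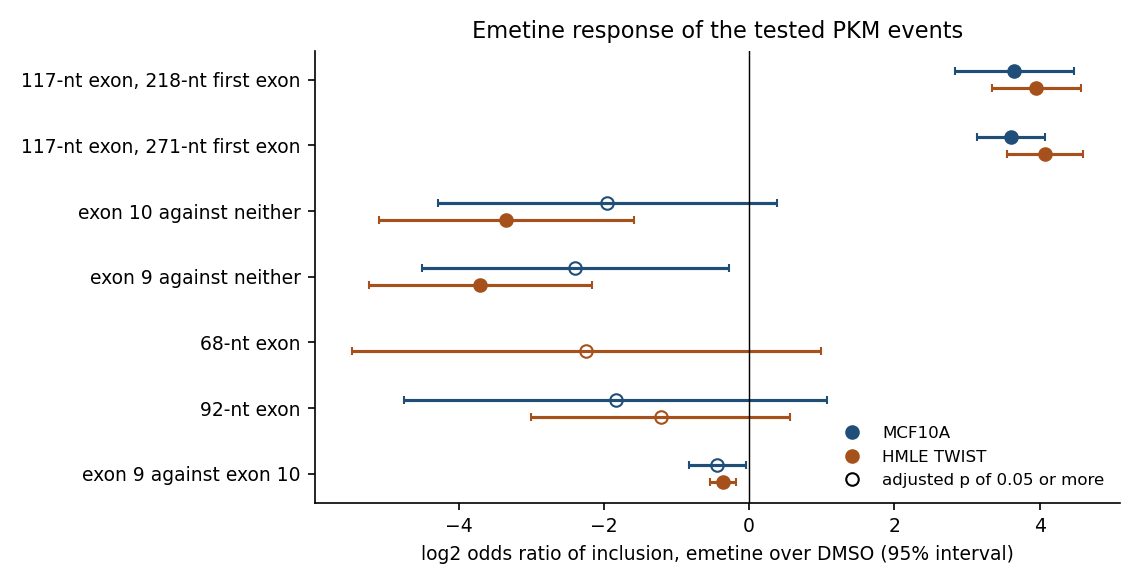
Log2 odds ratio of inclusion under emetine over DMSO for every tested PKM event and for exon 9 against exon 10, with 95% intervals from the quasi-binomial model. Filled points passed an adjusted p of 0.05; the 117-nucleotide exon lies near 4 after both first exons in both lines, in events that share reads, and the exon 9 and exon 10 events, which share skipping reads, lie below 0.

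Counted over all tested PKM events, 2 of 5 passed in MCF10A, both with higher inclusion under emetine, where 33.7% of all events passed and 17% passed with higher inclusion (16.7% with lower). In HMLE TWIST 4 of 6 passed, 2 higher and 2 lower, where 36% of all events passed, 13.7% higher and 22.3% lower. These counts hold pairs of events that share reads and few events separate them from the background. No PKM event passed the test of a different response between the lines: 0 of 5 passed by either tool (quasi-binomial model or limma), and 0 had an unadjusted p under 0.05, where 4.68% of all events passed. Between controls of the lines 0 of 5 passed in either tool, with 2 at an unadjusted p under 0.05, where 12.4% of all events passed. These were the 117-nucleotide exon after each first exon, with lower levels in HMLE TWIST (adjusted p = 0.206 and 0.208 in the quasi-binomial model). Between emetine groups 1 of 5 passed, where 28.9% of all events passed.

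Exons of the other enzymes of glycolysis passed the test about as often as all exons, and few changed by 10 points. Of 24 glycolytic enzyme genes (PKM not among them), 14 had 47 tested events in MCF10A, of which 6 passed with higher and 9 with lower inclusion (31.9%, against 33.7% of all events), and the median absolute difference was 0.00244 against 0.0239 over all events. In HMLE TWIST 15 genes had 58 tested events, of which 7 passed higher and 15 lower (37.9%, against 36% of all events), with a median absolute difference of 0.0036 against 0.0255. Only 1 event in each line was changed by at least 0.1, where 13.1% and 14.2% of all events were. In MCF10A it was an exon of ALDOC, a fructose bisphosphate aldolase (chromosome 17, 26902983 to 26903038), which rose from levels of 0.109 and 0.141 to 0.238 and 0.258 (adjusted p = 0.00454 in the quasi-binomial model, 0.105 in limma).

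In HMLE TWIST it was an exon of ALDOA, another aldolase (chromosome 16, 30077197 to 30077248), which fell from levels of 0.847 and 0.852 to 0.648 and 0.688 (adjusted p = 8.65e-06 in the quasi-binomial model, 0.0598 in limma). In MCF10A this exon stood at 0.623 and 0.64 in controls and 0.617 and 0.615 under emetine. The response differed between the lines by -0.166 (adjusted p = 3.55e-15 in the quasi-binomial model, but 0.276 in limma). In controls the level was 0.218 higher in HMLE TWIST (adjusted p = 5.54e-25 in the quasi-binomial model, 0.0406 in limma).

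The known regulators of PKM exon choice held exons of their own that changed under emetine. Of 11 such genes, all 11 had tested events in MCF10A, 36 in number, of which 12 passed with higher and 7 with lower inclusion, or 52.8% against 33.7% of all events. Of these events 9 were changed, 7 higher and 2 lower, or 25% against 13.1% of all events. In HMLE TWIST 10 genes had 39 tested events, of which 12 passed higher and 7 lower, or 48.7% against 36%, and 9 were changed, 6 higher and 3 lower, or 23.1% against 14.2%. Several events belong to the same gene and can share reads, so these percentages do not count independent events. The 11 genes were PTBP1, PTBP2, PTBP3, HNRNPA1, HNRNPA2B1, SRSF3, RBM4, NEK2, SRSF1, SRSF2 and MBNL1. SRSF3, an SR protein, had the largest difference in both lines, in a 456-nucleotide exon (chromosome 6, 36567598 to 36568053). Its levels were 0.0232 and 0.0238 in MCF10A controls and 0.589 and 0.478 under emetine, and 0.0329 and 0.0413 in HMLE TWIST controls and 0.538 and 0.475 under emetine (adjusted p = 1.21e-08 and 8.95e-07 in the quasi-binomial model, with 0.0145 and 0.0113 from limma).

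HNRNPA2B1, a heterogeneous nuclear ribonucleoprotein, had a 136-nucleotide exon (chromosome 7, 26230613 to 26230748) that rose from 0.603 and 0.647 to 0.957 and 0.947 in MCF10A and from 0.602 and 0.599 to 0.931 and 0.917 in HMLE TWIST (adjusted p = 3.94e-08 and 8.58e-06 in the quasi-binomial model). MBNL1, a muscleblind splicing factor, had a 54-nucleotide exon (chromosome 3, 152164493 to 152164546) that rose from 0.574 and 0.62 to 0.895 and 0.912 in MCF10A and from 0.206 and 0.191 to 0.576 and 0.545 in HMLE TWIST (adjusted p = 1.81e-06 and 1.05e-05 in the quasi-binomial model). The MBNL1 exon was also lower in HMLE TWIST than in MCF10A (difference -0.399 in controls and -0.343 under emetine, adjusted p = 1.29e-16 and 5.08e-14 in the quasi-binomial model, with 0.016 and 0.0169 from limma).

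In MCF10A a 104-nucleotide exon of SRSF2 rose from 0.125 and 0.117 to 0.297 and 0.289 (adjusted p = 3.66e-08 in the quasi-binomial model, 0.0525 in limma), and a 110-nucleotide exon of RBM4 rose from 0.00598 and 0.0198 to 0.18 and 0.182 (adjusted p = 1.72e-07, and 0.023 in limma). The SRSF2 exon was lower in HMLE TWIST than in MCF10A under emetine (difference -0.175, adjusted p = 4.9e-20 in the quasi-binomial model, 0.0567 in limma). In HMLE TWIST a 149-nucleotide exon of PTBP1 (chromosome 19, 806408 to 806556) rose from 0.762 and 0.862 to 0.973 and 0.956 at 27 reads or more per library (adjusted p = 0.0437 in the quasi-binomial model, 0.0273 in limma). A 34-nucleotide exon of PTBP2, the neuronal paralogue of PTBP1 (chromosome 1, 97271975 to 97272008), fell from 0.429 and 0.453 to 0.144 and 0.0788 at 20 reads or more per library (adjusted p = 0.00749 in the quasi-binomial model, 0.0258 in limma). Of 28 regulator events tested for a different response between the lines, 1 passed higher and 2 lower, or 10.7% against 4.68% of all events. Of these 28 events, 0 were changed. The values given for the regulators are inclusion levels and give neither the amount of each regulator nor its part in the PKM values, which was not tested.

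Among 19025 events tested in both lines, the exons whose log2 odds of inclusion, centred over the 8 libraries, lay closest to those of the PKM exon 9 share were in RPS3, ELP2, TPRA1, GPX4 and TMEM256-PLSCR3. Their root mean square differences from it were 0.117, 0.147, 0.18, 0.183 and 0.204, against a median of 1.29 over all events and 0.604 for an event that does not move at all. The exon of ELP2, a subunit of the Elongator complex, had mean levels of 6.75% and 5.45% in MCF10A control and emetine and 13.4% and 10% in HMLE TWIST control and emetine. The exon of TPRA1 had 51.3%, 42.4%, 68.1% and 60.6% in the same order. The closest exon, in RPS3, had 99.4%, 99.2%, 99.7% and 99.6%, and that of GPX4 had 98.9%, 98.4%, 99.5% and 99.3%. These exons were included in nearly all transcripts, so a likeness in log2 odds was a very small movement in level. The likeness is a description of these 8 libraries, in which line and treatment set most of the pattern, and it was the smallest among many events.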

How the data were processed

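Polyadenylated RNA of the 8 libraries was sequenced as stranded read pairs, per the labels' protocols. Reads were processed with STAR 2.5.3a and GRCh37, per the submitters' processing notes; the version of rMATS and the annotation are not given in the sources used here. Per the file headers, the authors deposited inclusion and skipping junction counts, the p-value and FDR of each event, and a difference score of mean inclusion levels. The headers call the groups sample 1 and 2, which were read as control and emetine because the table's name lists them so. The 4 columns of ready-made inclusion levels were not used.

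Counts were divided by the effective length of their form, and the inclusion level is the inclusion part of the 2 values' sum. An event was tested with at least 20 reads in every library and 10 reads of the rarer form in total. The main test was a quasi-binomial model in R 4.3.3, with dispersions moderated towards a trend on reads (limma 3.58.1, squeezeVar) and floored at 1, two-sided, with Benjamini-Hochberg adjustment over all tested events. limma on log2 odds with 0.5 added to each count was the alternative. The exon 9 share was fitted in the same way over all exon pairs with common flanks. For exon pairs the model took a dispersion of 7.86 to 11.8 for PKM, above the 1.34 to 6.25 of its own libraries.

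On simulated data with log odds shifted by 1.5, 44% of 168 shifted MCF10A events, 40.4% of 171 HMLE TWIST events and 23.5% of 200 interactions were recovered, with 7 false among 81 calls, 4 among 73 and 3 among 50. For exon pairs 81.5% of 195 were recovered in MCF10A and 86.4% of 191 in HMLE TWIST, with 2 false among 161 calls and 7 among 172. The simulation shifted only a small part of all events and gave every event the same correlation between reads of a library, whatever its depth. The real tables differ in both, so these rates do not describe the power for PKM.

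Deposited exons were matched to GENCODE 29 by exon and intron lengths, without converting coordinates. The members, the gene lists and the tests were chosen with earlier results of these data known. PKM events were given in full where they hold exon 9 or exon 10 or had an adjusted p under 0.05; from each list up to 5 changed genes with the largest difference were named, and the 5 genes closest to the exon 9 share. Intervals and limits from counts cover counting error only.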

Additional observations from a re-analysis of the deposited data

How the results depend on the processing

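No paired analysis was possible because the values inside a cell of the tables carry no replicate numbers. The calls rest on dispersions shared across events. With each event's own dispersion, the PKM events that passed went from 2 to 0 in MCF10A, from 4 to 0 in HMLE TWIST and from 1 to 0 between the emetine groups; the exon 9 share kept its differences but lost the call for emetine in HMLE TWIST (-1.37 points, adjusted p = 0.405) and between the emetine groups (2.84 points, adjusted p = 0.0682). That setting of the quasi-binomial model passed 0 of 25522 and 0 of 30290 events for emetine in MCF10A and HMLE TWIST (4666 and 6019 at an unadjusted p under 0.05), and 102 and 940 of 19025 events between the control and between the emetine groups. limma passed 4 PKM events in MCF10A with 0.5 or 1 added and 0 between the emetine groups with 0.5 added, and did not pass the emetine difference of the exon 9 share in HMLE TWIST (-1.37 points, adjusted p = 0.224 with 0.5 and 0.219 with 1 added). A single dispersion without trend passed that share in MCF10A (-0.823 points, adjusted p = 0.000472).

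With each library left out in turn, the count of PKM events was 0 to 2 in MCF10A, 0 to 4 in HMLE TWIST and 0 to 1 between the emetine groups. The exon 9 share differed by -0.944 to -0.703 points in MCF10A and by -1.67 to -1.06 points in HMLE TWIST. Leaving out an emetine library left 127 or 0 events passing in MCF10A and 0 in HMLE TWIST over the whole table, since groups without reads of 1 form then set the dispersion. With such groups kept out of it, chosen after seeing the data, these fits passed 6776 and 7381 or 9063 and 9528 events, and 2 PKM events in MCF10A and 4 in HMLE TWIST passed without any one library. The exon 9 share in HMLE TWIST then did not pass without either emetine library (-1.39 points, adjusted p = 0.0511, and -1.34 points, adjusted p = 0.0725). No PKM value that passed changed its direction under any alternative run. The exon 9 share between control groups passed under all 25 of its alternatives, with an adjusted p of at most 0.0425. Over the whole tables, the events that passed were 5590 with limma and 5247 without a read minimum in MCF10A, against 8598. For the difference of response between the lines, limma passed 0 of 19025 events (2826 at an unadjusted p under 0.05) against 890 in the quasi-binomial model, and between the lines it passed 1019 against 2364 in controls and 888 against 5489 under emetine.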
